A study of Rattus norvegicus with 6 samples.

Results

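The transcriptome of liver endothelial cells from control rats was described from 3 of the 6 arrays of a study of the liver endothelium, chosen as the arrays whose titles name control rats. The study set cells of control Wistar rats beside cells of adult male Wistar rats with cirrhosis, and the cirrhotic arrays were not used here. Cells were freed by perfusing the liver with collagenase, separated by isopycnic centrifugation and captured on antibody-coated magnetic beads, per the labels, and their RNA was hybridised to an array of 15866 probe sets besides controls. The labels do not state what the antibody binds, how old the control rats were or of which sex, whether they received any treatment, or how many rats each array stands for, so the spread between the 3 arrays may be biological or technical. The array without a number in its title is called array 1, and 3 values in a row below stand for arrays 1, 2 and 3.

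Liver sinusoidal endothelial cells line the capillaries of the liver. They carry open pores, lack a full basement membrane and clear large molecules and immune complexes from the blood by endocytosis into lysosomes. They also send signals to hepatocytes and stellate cells, among them bone morphogenetic proteins that control iron handling and Wnt ligands that set liver zonation. Kupffer cells, the resident macrophages, sit in the same sinusoids, and stellate cells lie just outside them.

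All 7 genes used as markers of these cells were among the brightest of the array. Each value is a linear signal in intensity units, given with the mean and SD over 3 arrays. Dnase1l3, a secreted enzyme that digests DNA of dying cells, read 10537, 11246 and 11131 (mean 10971 ± 380, SD, n = 3). Fcgr2b, the receptor that takes up immune complexes, read 7369, 7191 and 8363 (mean 7641 ± 632). Kdr, the main receptor for vascular endothelial growth factor (VEGF), read 7212, 7163 and 7724 (mean 7366 ± 311). These 3 genes differed little between arrays, with Fcgr2b and Kdr highest on array 3 and Dnase1l3 on array 2. Bmp2, a ligand that induces hepcidin in hepatocytes, read 6935, 7125 and 7164 (mean 7074 ± 122). Lyve1, a hyaluronan receptor, read 5326, 6568 and 7150 (mean 6348 ± 932). The scavenger receptor Stab1 read 4002, 3949 and 4625 (mean 4192 ± 376). Bmp2 had the lowest ratio of highest to lowest array of the 7 markers, 1.03, and Lyve1 the highest, 1.34, with array 1 the lowest for both. Gata4, the transcription factor that specifies sinusoidal endothelium, read 3336, 2503 and 2627 (mean 2822 ± 450), highest on array 1. The lowest of the 7 mean signals, that of Gata4, lay at the 97.0th percentile of all probe sets. A second probe set of Gata4 read 313, 882 and 501 (mean 565), lowest on array 1. A second one of Bmp2 read 3487, 3314 and 3622 (mean 3474), lowest on array 2. For Gata4 and Bmp2 both the level and the order of the arrays thus depend on the probe set.

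A wider list of sinusoidal endothelial genes holds the 7 markers and was chosen with earlier results of these data known, so its levels describe the cells and are not independent support for their label. Of 38 listed genes, 26 had a probe set of their own symbol, and all 26 were above background on every array. Background here is the highest of 27 bacterial control probe sets that are not spiked in, which read 49.9, 43.9 and 31.2. Over all named genes, 8544 of 10411 (82.1%) passed the same rule, and over all probe sets 12046 of 15866 (75.9%) did. The count of members above background given for each list below is to be read beside this 82.1%. The median member lay at the 97.7th percentile of probe sets by mean signal, where the median of all named genes lay at the 57.4th. In the top 10% of probe sets lay 20 of the 26 members, where 11.8% of all named genes did. Stab2, Clec4g, Mrc1, F8 and Wnt2 had no probe set under their symbols and were not analysed here. Percentiles rank signals, which also depend on how well each probe set binds, so they are not transcript numbers, and signals of different genes were not compared as amounts.

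**Figure D1:**
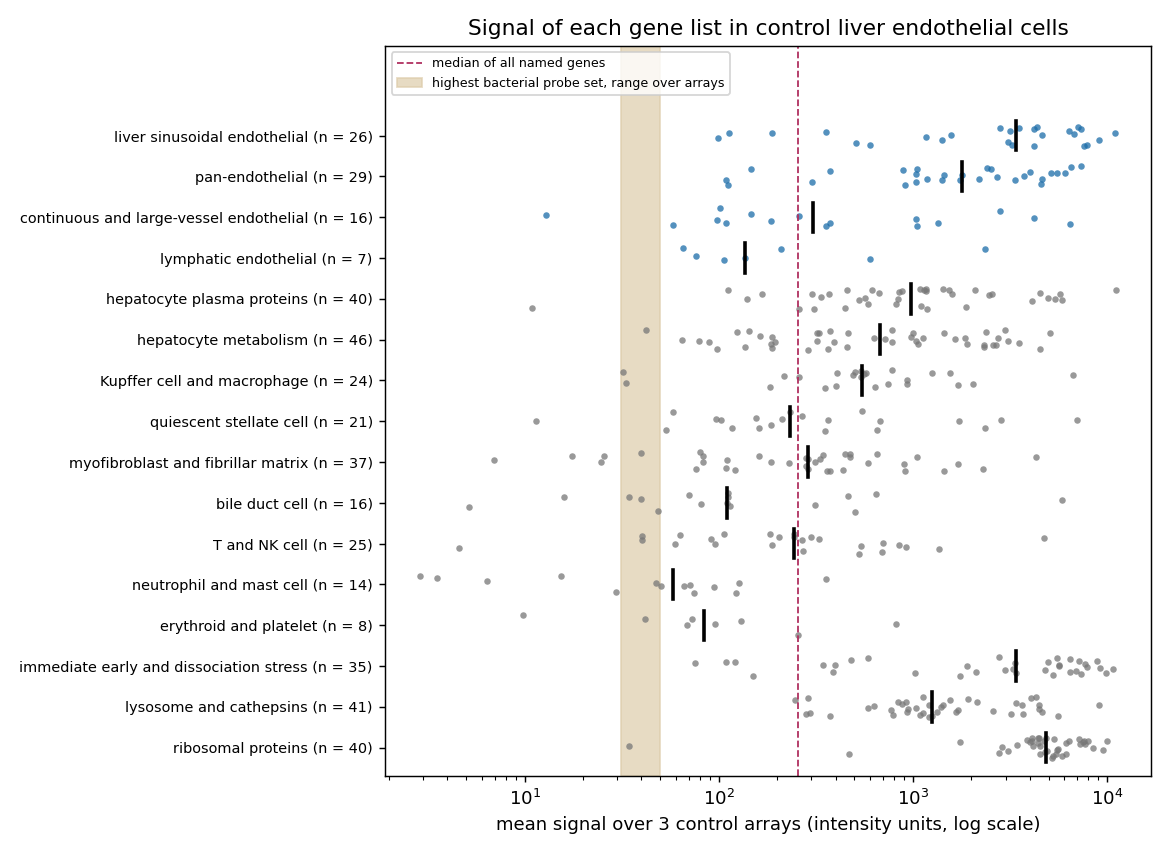
Mean signal over the 3 control arrays (intensity units, log scale) of every measured member of 16 gene lists; each point is a gene, black bars are list medians, the dashed line is the median of all named genes (256) and the shaded band the range of the highest bacterial probe set over arrays (31.2 to 49.9). Medians of the sinusoidal endothelial (3382), immediate early (3390) and ribosomal (4862) lists lie far to the right of the dashed line, and those of the bile duct, neutrophil and erythroid lists to its left.

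Other sinusoidal genes were bright as well. Ctsl, the lysosomal protease cathepsin L, read 8625, 9297 and 9227 (mean 9050 ± 370). Sgk1, a kinase induced by steroid hormones, read 7275, 5792 and 7252, and was lowest on array 2. The lipid phosphatase gene Plpp3 read 4050, 4904 and 4845, and the receptor partner Ramp2 read 4324, 4056 and 4643. The cytokine gene Il1a read 7362, 8077 and 8113 (mean 7851 ± 423), and a second probe set of it had a mean of 5274. At the dim end of the list were Cd36, a fatty acid translocase, with 89.4, 150 and 57.4, and Aass, an enzyme of lysine breakdown, with 164, 114 and 58.9. Cd36 was highest on array 2 and Aass on array 1, and both were lowest on array 3. They were among 4 of the 26 members that lay at least 2-fold apart between arrays, where 496 of 8544 genes above background (5.81%) did, and the others were Flt4 and Calcrl.

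General endothelial genes were above background on every array for 29 of 29 measured members, with a median percentile of 94.3. Klf2, a transcription factor induced by flow, read 6333, 7607 and 8060, and its relative Klf4 read 5764, 5219 and 5536. Ptprb, the phosphatase of the angiopoietin receptor, read 7009, 6479 and 6077. Eng, a coreceptor for bone morphogenetic proteins, read 6391, 5493 and 6284 (mean 6056 ± 490). The arrays overlapped in order for these genes, with Klf2 highest on array 3 and Ptprb and Eng on array 1. The junction protein gene Esam read 5005, 5548 and 4807, and the sphingosine phosphate receptor gene S1pr1 read 3983, 4936 and 4918. The transcription factor gene Ets1 read 4441, 4444 and 4853, and Emcn, which codes for a sialomucin of capillaries and veins, read 3545, 4263 and 4213. Summed over the list, the signal was 73161, 74322 and 75030, a spread of 944 (SD, n = 3) around a mean of 74171. Cdh5, Tek and Cd34 lacked a probe set under their symbols and were not analysed here.

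Genes of continuous and large-vessel endothelium covered a wider range, with 15 of 16 members above background and a median percentile of 61.8. Lrg1, a secreted glycoprotein of endothelium that hepatocytes also make, read 5936, 6132 and 7335, and the adhesion receptor gene Vcam1 read 5067, 3838 and 3770. Vwf, the clotting factor stored in large-vessel endothelium, read 1399, 1041 and 712 (mean 1051 ± 343). Sele, the E-selectin of activated endothelium, read 67, 44 and 62, close to background. Cldn5, a tight junction protein, read 137, 100 and 91. Array 1 was the highest for Vwf, Cldn5 and Vcam1, and over the list for 9 of 15 members above background, where it was the highest for 30.8% of all such genes. Among lymphatic genes, all 7 measured members were above background with a median percentile of 42.0. The brightest was Reln, a secreted glycoprotein also made by stellate cells, with 1719, 2027 and 3325. The transcription factor Prox1 of this list read 259, 229 and 142, and which cells carried it was not tested.

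**Figure D2:**
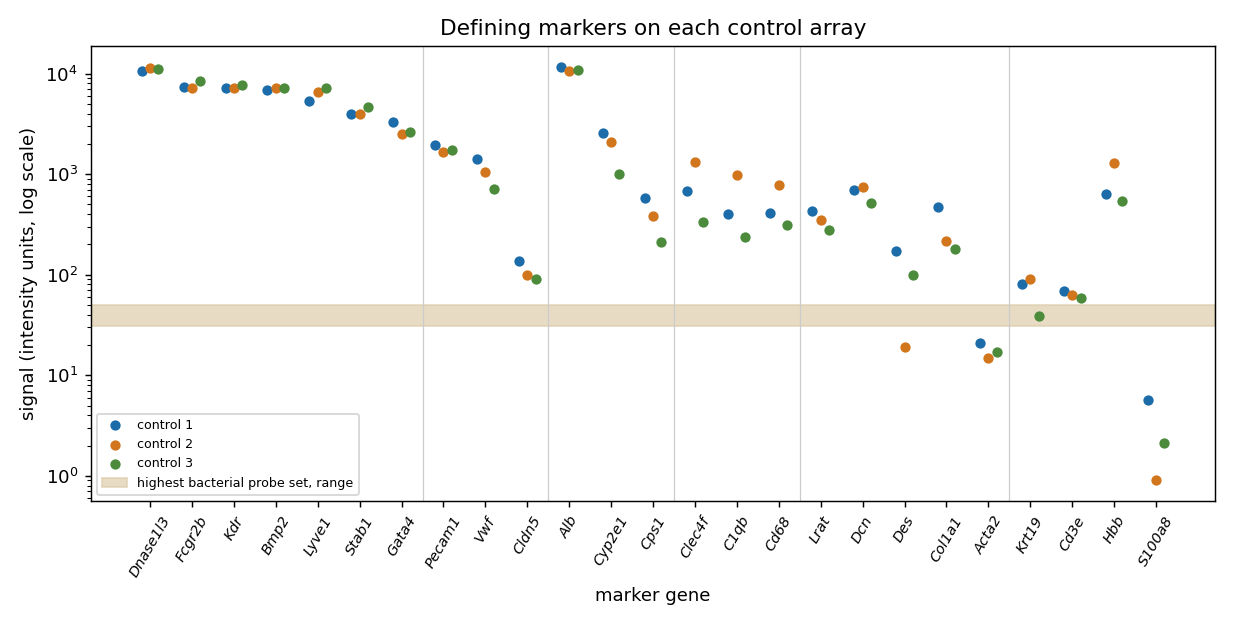
Signal on each control array (intensity units, log scale) of 25 marker genes, in blocks for sinusoidal endothelium, other endothelium, hepatocytes, macrophages, stellate cells and myofibroblasts, and other cells; each colour is an array and the band is the range of the highest bacterial probe set (31.2 to 49.9). The 7 sinusoidal markers lie at 2503 or above on every array, Clec4f (331 to 1333) and C1qb (237 to 978) are spread widely, and Acta2 (15 to 21) and S100a8 lie below the band.

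The 30 brightest genes had mean signals from 7650 to 11385. The brightest was B2m, the light chain of MHC class I, with 10397, 12284 and 11474 (mean 11385 ± 946). Alb, the serum albumin of hepatocytes, read 11729, 10636 and 10860 (mean 11075 ± 577). Dnase1l3 came next, and then Egr1, an immediate early transcription factor, with 11320, 10148 and 10851 (mean 10773 ± 590). The arrays changed places in this order, since Alb was the brightest of these 4 on array 1 and B2m on arrays 2 and 3. Of the 30, 6 served translation, namely the elongation factor Eef1a1 and the ribosomal proteins Rpl37a, Rps23, Rps29, Rpl27a and Rpl3. The mitochondrial genes COX1 and COX2, which code for subunits of the respiratory chain, had means of 10753 and 9768. A group of 7 were genes of rapid response and stress, namely Egr1, Jun, Nfkbia, Hspa1a, Atf4, Zfp36 and Junb. The actin-binding Tmsb4x read 9307, 10564 and 9378, and the cytoskeletal actin Actg1 read 6539, 8516 and 8050, both highest on array 2. Apoe, an apolipoprotein of hepatocytes and macrophages, read 10189, 10346 and 10639, and Selenop, the selenium carrier of plasma, read 7771, 7544 and 8371. Also among the 30 were the interferon-induced Ifi27, Rup2, the redox protein Txn1 and its inhibitor Txnip, the transcription regulator Tsc22d1, the polyamine enzyme Sat1, Ctsl and Il1a. Of the 30 brightest probe sets, 20 carried a single symbol, and the others named no gene. The 100 brightest probe sets held 10.04% of all signal and the 500 brightest held 30.5%.

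Immediate early and dissociation stress genes respond to growth factors, heat and handling of cells within minutes. Of 35 measured, 34 were above background on every array and 25 lay in the top 10% of probe sets. Jun, part of the AP-1 transcription factor, read 10429, 8803 and 10451 (mean 9894 ± 945), lowest on array 2. Nfkbia, the inhibitor of NF-kB, read 9522, 8179 and 9863 (mean 9188 ± 890). Hspa1a, an inducible heat shock protein, read 7876, 9846 and 8801 (mean 8841 ± 986). Arrays 1 and 3 were above array 2 for Jun and Nfkbia, and array 2 was the highest for Hspa1a. Zfp36, which shortens the life of cytokine messenger RNAs, read 7919, 8106 and 7687, and Junb read 7392, 7319 and 8250. Fos read 4643, 6623 and 5608 with 1 probe set, while another of its probe sets had a mean of only 34, so a level at background on a probe set does not stand for the gene. Of the 34 members above background, 2 lay at least 2-fold apart between arrays, a share near the 5.81% of all genes above background. The labels do not give the time from perfusion to lysis, and the part of the isolation in these levels was not tested.

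The promoters of some of these genes hold the CArG box, the binding motif of serum response factor, or a TATAAA motif, and they are shown because these genes stood among the brightest or in the immediate early list. Sequences come from RefSeq tables of the GRCr8 build, run 5′ to 3′ on the gene's strand, end before the annotated start, and have the motif in capitals.
Egr1, CArG box, chr18:26736948-26737029, plus strand: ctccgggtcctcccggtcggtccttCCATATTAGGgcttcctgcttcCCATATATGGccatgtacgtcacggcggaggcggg
Egr2, CArG box, chr20:21054490-21054549, minus strand: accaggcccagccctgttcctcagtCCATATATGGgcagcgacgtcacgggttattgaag
Zfp36, CArG box, chr1:92799109-92799165, minus strand: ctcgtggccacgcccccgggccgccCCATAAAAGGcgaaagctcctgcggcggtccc
Junb, TATAAA, chr19:40081052-40081107, plus strand: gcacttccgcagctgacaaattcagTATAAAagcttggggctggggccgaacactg
Il1a, TATAAA, chr3:136990019-136990074, minus strand: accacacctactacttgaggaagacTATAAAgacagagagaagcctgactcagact

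In the Egr1 promoter the pair of CArG boxes began 105 and 83 bases before the start, and in Egr2 and Zfp36 the box began 83 and 32 bases before it. The TATAAA motif began 49 bases before the start of Junb and 32 before that of Il1a. The window searched ran from 250 bases before to 50 after the start, on both strands. A CArG box may hold the letters TATAAA, so the motifs can overlap. Of 27 immediate early genes with a promoter in the table, 3 (11.1%) held a CArG box, beside 1.42% of 8610 genes on the array and 1.64% of all 27457 promoters. TATAAA was present in 34 of the 200 brightest genes with a promoter (17.0%), 8.70% of the genes on the array and 14.3% of all promoters. Among 41 chemokine and cytokine genes with a promoter, 16 (39.0%) held it. The letters GGGCGG, the core of the Sp1 motif, were present in 58.5% of the 200 brightest, 59.6% of genes on the array and 34.9% of all promoters. CCGGAAGT, an ETS motif, was present in 12 of the 200 brightest, 7.08% of genes on the array and 4.01% of all promoters. The letters AGATAA, a motif of the family of Gata4, were present in 8 of the 200, 7.05% and 11.3% of the same sets. Of 20 sinusoidal endothelial genes with a promoter, 0 held AGATAA and 0 held CCGGAAGT. Of 16 general endothelial genes with a promoter, 2 held AGATAA and 0 held CCGGAAGT. These are matches of letters and not measured binding. The CArG box was added to the search after the values had been seen.

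Hepatocyte RNA was present on all 3 arrays, and most plasma protein genes read highest on array 1. Of 40 measured plasma protein genes, 39 were above background on every array, with a median percentile of 87.4. Apart from Alb, the thyroid hormone carrier Ttr read 6394, 5111 and 6070 (mean 5859 ± 668), and the apolipoprotein Apoc3 read 6396, 4973 and 5778. The protease inhibitor Serpina1 read 6876, 5358 and 3928, and the haemoglobin-binding Hp read 7024, 4125 and 3804 (mean 4984 ± 1774). Array 1 was the highest for each of these. It was the highest for 37 of the 39 members, where it was the highest for 30.8% of all genes above background. The summed signal was 89167, 63231 and 61496, and the median member lay 0.77 above the mean of the other arrays on the log2 scale on array 1. At least 2-fold apart were 17 of the 39, against 5.81% of all genes above background. Fewer cells of a type and less RNA per cell cannot be told apart in such bulk RNA.

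Genes of hepatocyte metabolism were above background on every array for 44 of 46 members, with a median percentile of 81.2. Fabp1, a fatty acid carrier, read 6122, 4658 and 4528 (mean 5102 ± 885). Pck1, the rate-limiting enzyme of gluconeogenesis, read 3293, 4085 and 1905, and Hpd, an enzyme of tyrosine breakdown, read 3751, 2774 and 1552. The urea cycle gene Ass1 read 3305, 3531 and 2071, and Arg1, also of the urea cycle, read 2739, 2871 and 2646. Array 3 was the lowest for each of these 5 genes, but by little for Fabp1 and Arg1, and array 2 was the highest for Pck1, Ass1 and Arg1. Array 1 was the highest for 29 of the 44 members and array 2 for 13. Of the 44 members, 38 were lowest on array 3, where 39.7% of all genes above background were, and 19 lay at least 2-fold apart. The summed signal was 64149, 58296 and 40226. Cyp1a2, a drug-metabolising enzyme of pericentral hepatocytes, read 829, 353 and 193, a ratio of 4.29 between arrays.

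Genes known to be expressed more in male than female rat liver were measured with 7 members. All were above background, where 82.1% of all named genes were, and all were highest on array 1. Array 1 was the highest for 30.8% of all genes above background. Slco1a1 was near background and differed little between arrays, with 69.6, 63.6 and 60.4. The steroid hydroxylase Cyp2c11 read 3915, 3285 and 3324, and its relative Cyp2c13 read 3450, 2492 and 1800. Obp3, a lipocalin of male rat liver, read 3009, 2806 and 1069, and Cyp3a2 read 2686, 1829 and 1075. These genes belong to hepatocytes. Like the hepatocyte metabolism list, they had their highest sum on array 1 and their lowest on array 3 (14242, 11186 and 8006). Cyp2c11, Cyp2c13, Cyp3a2 and Slco1a1 are members of both lists, so the sums of these lists are not independent.

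Macrophage genes stood out on array 2. Of 24 measured, 22 were above background on every array, with a median percentile of 76.9. Clec4f, a lectin specific to Kupffer cells, read 682, 1333 and 331 (mean 782 ± 509). The complement genes C1qa and C1qb, made by macrophages, read 637, 1205 and 391 and 397, 978 and 237. The lysosomal protease Ctss read 1186, 1910 and 649. Array 2 was the highest and array 3 the lowest for all 4 of these genes. Over the list, array 2 was the highest for 19 of 22 members, where it was the highest for 38.8% of all genes above background. The median member lay 0.52 above the other arrays on array 2 and 0.44 below them on array 3 on the log2 scale, with sums of 21184, 27460 and 18278. The brightest member was Cd74, the invariant chain of MHC class II, which read 6709, 7215 and 6079, and the receptor chain Fcer1g read 2001, 2320 and 1777. Cd74 is also made by B cells, dendritic cells and sinusoidal endothelium. Marco, Cd163 and Vsig4 lacked a probe set under their symbols and were not analysed here. Ncf1, an NADPH oxidase subunit of phagocytes, read 27, 36 and 33, at or near background.

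Other leukocyte genes were mostly dimmer. Of 25 T and NK cell genes, 22 were above background, where 82.1% of all named genes were, with a median percentile of 56.4. Array 2 was the highest for 19 of the 22, where it was the highest for 38.8% of all genes above background. The brightest of the 25 was the chemokine Ccl5, with 4144, 5546 and 4531. Next came the kinase Lck with 1209, 1484 and 1372 and Xcl1 with 732, 1051 and 995. Nkg7 and the pore-forming Prf1, both of cytotoxic granules, had means of 851 and 691. The T cell receptor chain Cd3e read 69, 63 and 58, above background on every array, and Cd3d read 34, 53 and 33, near background. The chains Cd3g and Cd247 were brighter, with 190.5, 181.3 and 175.9 and 218.3, 273.2 and 237.4. Of 14 neutrophil and mast cell genes, 8 were above background, and S100a8, with 5.7, 0.9 and 2.1, and S100a9 lay at or below it. Haemoglobin beta (Hbb), carried by red cells, read 628, 1277 and 540, highest on array 2. Of only 3 measured genes of B and plasma cells, 2 were above background, and Cd79b, the B cell receptor chain, read 32, 22 and 35.

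Quiescent stellate cell genes were above background for 18 of 21 members, a share near the 82.1% of all named genes. Their median percentile of 55.5 was also near the median of all named genes. The interferon-induced Ifitm1 read 7314, 7027 and 6614, and Ecm1, a secreted regulator of TGF-beta activation, read 2975, 2590 and 2951. Plin2, the coat protein of lipid droplets, read 1867, 1528 and 1803. Cygb, a globin of stellate cells, read 756, 610 and 658, and Lrat, which esterifies retinol for storage, read 431, 350 and 278. Lrat was highest on array 1 and lowest on array 3, and the median CV (SD over mean) of the list between arrays was 21.1%, where it was 34.9% for plasma proteins and 30.1% for hepatocyte metabolism. Des, the muscle-type filament of stellate cells, read 171, 19 and 99, below background on array 2 only, and Ngfr read 17, 10 and 7. Array 1 was the highest for 11 of the 18 members above background, where it was the highest for 30.8% of all such genes. Array 3 was the lowest for 10 of the 18, where it was the lowest for 39.7% of all such genes. Summed signal was 18630, 17595 and 18261. The bright Ifitm1, Ecm1, Reln and Plin2 weigh most in this sum, so it says little of dimmer members such as Lrat.

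Myofibroblast and fibrillar matrix genes were above background for 31 of 37 members, a share near the 82.1% of all named genes. Their median percentile was 60.2. Sparc, a matrix protein that endothelium makes too, read 4034, 3812 and 5106 (mean 4317 ± 692), and the calcification inhibitor Mgp read 2542, 2519 and 1854. The collagen genes Col1a2 and Col6a1 read 881, 579 and 498, and 1434, 567 and 690. Array 1 was the highest for both collagens and for 23 of the 31 members, where it was the highest for 30.8% of all genes above background. Acta2, smooth muscle actin and the defining marker of myofibroblasts, read 21, 15 and 17, below background on every array. Postn and Ltbp2 were below background on every array as well, and Tagln, a smooth muscle gene, read 294, 62 and 6. Bile duct genes were above background for 11 of 16 members; Aqp1, a water channel that endothelium also makes, read 4787, 6205 and 6583, while the duct keratins Krt19 and Krt7 read 80, 91 and 39 and 57, 42 and 47.

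**Figure D3:**
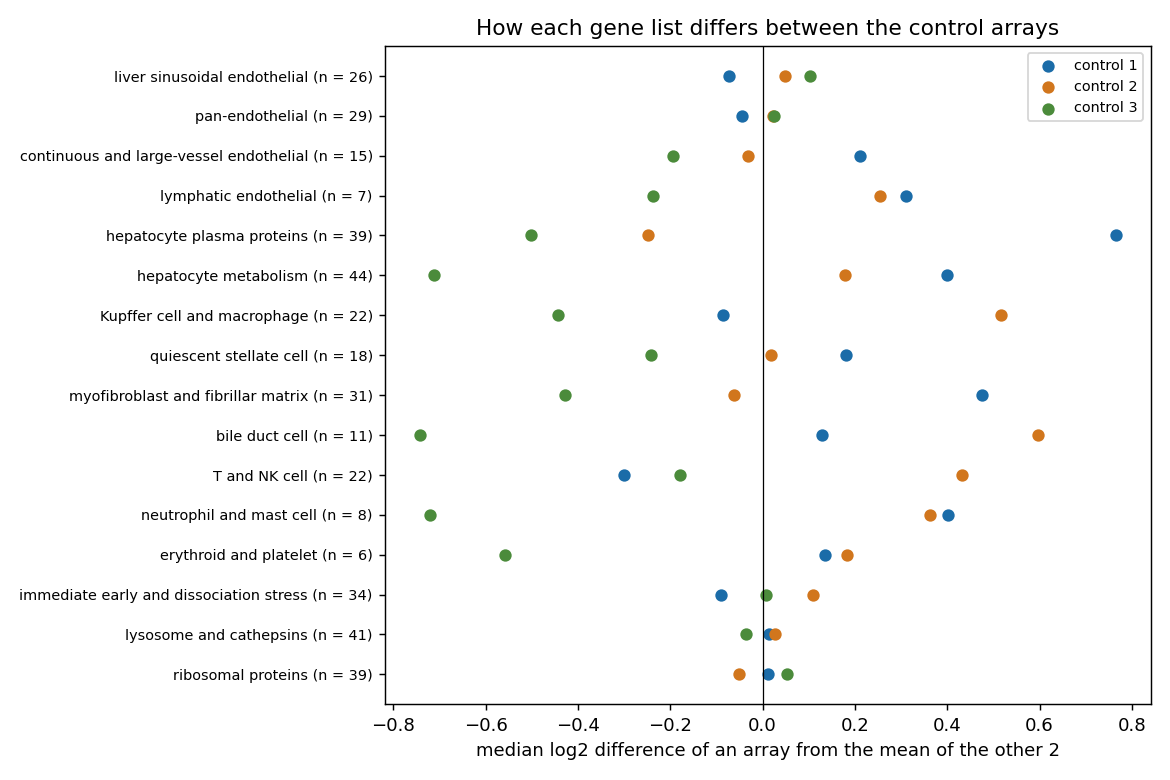
Median over list members of the log2 difference of each array from the mean of the other 2, for 16 gene lists with the number of members above background in brackets; each colour is an array. Array 1 lies at 0.77 for hepatocyte plasma proteins and array 2 at 0.52 for macrophage genes, array 3 lies at the left for most lists of other cells, and the 3 arrays lie close together for the general endothelial, lysosomal and ribosomal lists.

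Of 53 growth factor receptors measured, 43 were above background on every array, a share near the 82.1% of all named genes. Their median percentile of 52.8 lay below the 57.4 of all named genes. The bone morphogenetic protein receptors Acvrl1 and Bmpr2 read 483, 363 and 458 and 290, 227 and 431. Besides Kdr and Eng, the VEGF coreceptor Nrp1 read 4689, 3791 and 4929 (mean 4470 ± 600), and the VEGF receptor Flt1 read 1101, 1648 and 1584. Flt4, the receptor for VEGF-C, read 383, 594 and 823, and was at least 2-fold higher on array 3 than on array 1. Of their ligands, Vegfa read 137, 147 and 122, Vegfb 227, 217 and 211 and Vegfc 320, 184 and 182. Vegfa had a second probe set with a mean of 54. Tie1, an endothelial receptor of the angiopoietin system, read 2662, 2750 and 2753, and its SD of 51.3 was small. Ephb4, the venous receptor for ephrin B2, read 2991, 1936 and 2442. The Wnt receptor Fzd4 read 1844, 1609 and 1670, and Fgfr1 read 1229, 955 and 1286. Erbb2, a receptor tyrosine kinase, read 5, 11 and 5, below background, and Fgfr4, the bile acid signal receptor of hepatocytes, was above it on array 1 only.

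Receptors for cytokines were above background for 35 of 43 members, a share near the 82.1% of all named genes. Il6st, the shared signalling chain of the IL-6 family, read 7384, 7367 and 7954 (mean 7568 ± 334). Il6r, the chain that binds IL-6 itself, read 132, 99.9 and 73.4, and Il6 read 63.3, 89.7 and 37.6. Il6r and Il6 were both lowest on array 3, where Il6st was highest. The scavenging receptor Ackr3 read 2285, 2825 and 2128, and its ligand Cxcl12 read 2504, 2100 and 2182. Cxcr4, the signalling receptor for Cxcl12, read 630, 1222 and 817, highest on array 2. The tumour necrosis factor receptor Tnfrsf1a read 2393, 2608 and 2070, and Tnf read 868, 958 and 896. The interferon gamma receptor chain Ifngr1 read 1802, 2132 and 1838, and Ltbr, the lymphotoxin receptor, read 1516, 1357 and 1514.

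Of 61 G protein-coupled and natriuretic receptors, 42 were above background, a smaller share than the 82.1% of all named genes, with a median percentile of 38.3. The adhesion receptors Adgrf5 and Adgrl4, both endothelial, read 4704, 4777 and 5175 and 2974, 2803 and 3479. Gpr182, an endothelial receptor that binds chemokines, read 2914, 3637 and 3992, highest on array 3 and lowest on array 1. Npr1, the receptor of atrial natriuretic peptide, read 2674, 2196 and 2483, and the thrombin receptor F2r read 1675, 1776 and 1897. Calcrl, which forms the adrenomedullin receptor with Ramp2, read 625, 1746 and 1120 (mean 1164 ± 562). Its ligand Adm read 311, 638 and 878, so array 1 was the lowest for both. Gcgr, the glucagon receptor of hepatocytes, read 6, 6 and 5, below background on every array.

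**Figure D4:**
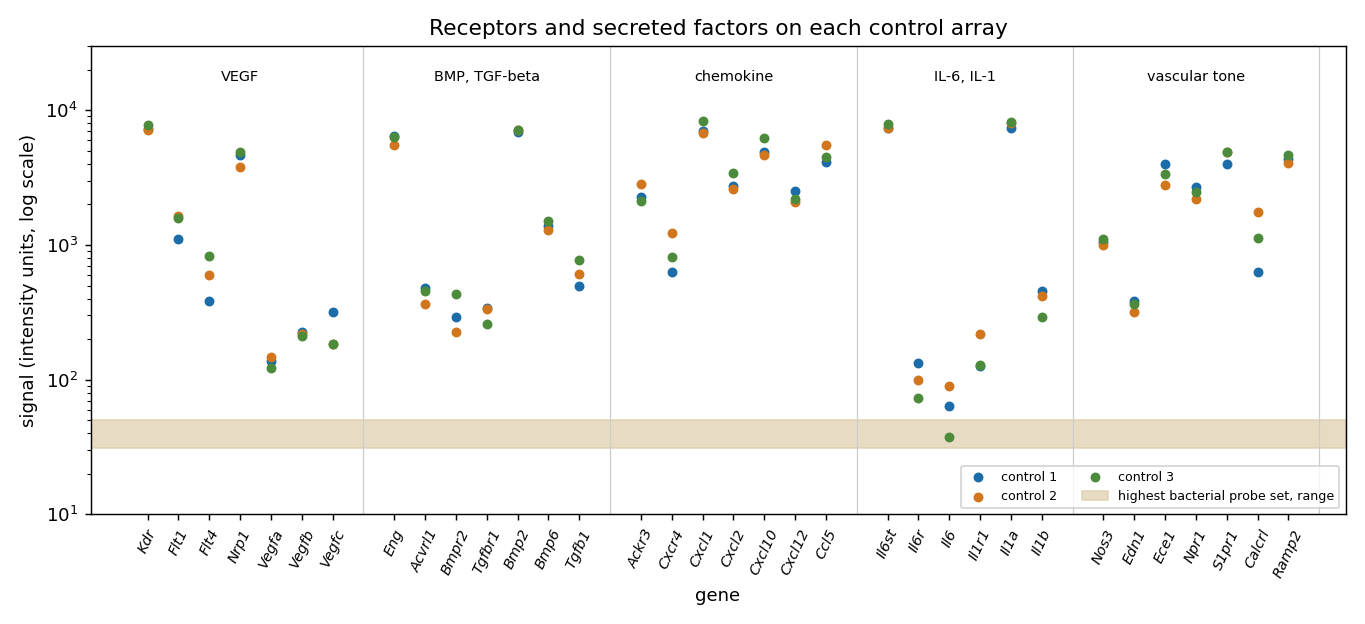
Signal on each control array (intensity units, log scale) of receptors and secreted factors in 5 groups; each colour is an array and the band is the range of the highest bacterial probe set. Kdr, Bmp2, Il6st, Il1a and Cxcl1 lie near the top on every array, while Vegfa, Vegfb, Il6r and Il6 lie below 300, and Calcrl and Flt4 show a wide spread between arrays.

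Endocytic receptors and adhesion molecules had median percentiles of 66.0 and 67.4, where that of all named genes was 57.4. Of 26 endocytic and scavenger receptors, 23 were above background, where 82.1% of all named genes were. Dab2, an adaptor for endocytosis, read 5270, 4961 and 5083, and Fcgrt, which recycles antibodies and albumin, read 3563, 5541 and 5585 (mean 4896 ± 1155). Array 1 was far the lowest for Fcgrt, and the 3 arrays were close for Dab2. The sorting receptor M6pr, which carries enzymes to lysosomes, read 1949, 2153 and 2167. Lysosomal genes were all above background, 41 of 41, with a median percentile of 90.9 and a median CV between arrays of 7.69%. The saposin precursor Psap read 5687, 5302 and 5761, and the protease Ctsd read 4888, 4688 and 4336. Of 28 adhesion molecules, 27 were above background, among them the tetraspanin Cd81 with 7331, 7320 and 7579, the integrin Itga1 with 4042, 3865 and 4916 and Icam1 with 4740, 3144 and 4751, lowest on array 2.

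Secreted growth factors were above background for 56 of 70 members, a share near the 82.1% of all named genes. Their median percentile was 40.7. After Bmp2, Igfbp7, a secreted binding protein of endothelium, read 5256, 5903 and 6058 (mean 5739 ± 426). The matricellular factors Ccn2 and Ccn1 read 2160, 2066 and 2033 and 1712, 2019 and 1991. Bmp6, the other ligand of hepcidin control, read 1381, 1295 and 1503 (mean 1393 ± 104). A second probe set of Bmp6 read 813, 747 and 1154, higher on array 3 than the others, so the spread of Bmp6 between arrays depends on the probe set. Esm1, a proteoglycan of activated endothelium, read 743, 575 and 2456 (mean 1258 ± 1040), and array 3 alone was high, with a ratio of 4.27 between highest and lowest. Tgfb1 read 494, 611 and 773. Hgf, the hepatocyte growth factor of stellate and endothelial cells, read 108, 302 and 227.

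Chemokines and cytokines were above background for 41 of 55 members, a smaller share than the 82.1% of all named genes. Their median percentile of 38.8 lay below the 57.4 of all named genes. In the top 10% of probe sets lay 11 of the 55, where 11.8% of all named genes did. The neutrophil chemokines Cxcl1 and Cxcl2 read 6971, 6792 and 8300 and 2740, 2593 and 3396. Cxcl10, an interferon-induced chemokine, read 4889, 4670 and 6184 (mean 5248 ± 819), and the monocyte chemokine Ccl2 read 2041, 1716 and 1989. Array 3 was the highest for Cxcl1, Cxcl2 and Cxcl10. Ccl4, a chemokine of leukocytes, read 1727, 2379 and 1452, highest on array 2, where the macrophage and T and NK lists were highest. Ccl5 was also highest on array 2, but it is itself a member of the T and NK list. The part of macrophages and of T and NK cells in the chemokine signals was not tested. Il1rn, the antagonist of IL-1, read 12, 15 and 9, below background on every array, and the receptor Il1r1 that it binds read 126, 219 and 129.

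Genes of vascular tone and of clotting had median percentiles of 41.3 and 75.7, where that of all named genes was 57.4. Of 34 vasoactive enzymes and peptides, 25 were above background, a smaller share than the 82.1% of all named genes. Nos3, the endothelial nitric oxide synthase, read 1047, 1000 and 1106 (mean 1051 ± 53.0). Ece1, which activates endothelin, read 3977, 2767 and 3363, and the endothelin precursor Edn1 read 383, 318 and 365. Nos3 and Edn1 differed little between arrays. Thromboxane synthase (Tbxas1) read 267, 878 and 832, low on array 1 only, and haem oxygenase Hmox1 read 1264, 2051 and 1786. Of 20 clotting genes, 18 were above background, among them S100a10, part of a plasminogen-binding complex, with 2254, 2050 and 2347, the anticoagulant receptor Thbd with 2860, 1751 and 1919 and the inhibitor Tfpi2 with 2077, 1446 and 1637. Basement membrane and matrix genes were above background for 37 of 40, with a median percentile of 86.8. Of these, the protease Adamts1 read 4300, 4254 and 4534, nidogen (Nid1) read 2393, 2180 and 2538 and the collagen Col4a1 read 2175, 2068 and 2540.

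Of 58 endothelial transcription factors, 54 were above background, with a median percentile of 87.5. Besides Klf2, Klf4 and Ets1, Irf1, an interferon response factor, read 5951, 5168 and 6670, and Id3, a target of bone morphogenetic protein signals, read 3850, 4978 and 5686. Id1, another such target, read 2092, 3206 and 3687, so both were lowest on array 1. Maf read 3293, 3080 and 3378, and the hypoxia factor Epas1 read 4047, 4198 and 3833. Of 23 MHC genes, 22 were above background, among them the class II chain RT1-Da with 6941, 7215 and 5812. Cell division genes had a median percentile of 49.2, with the replication clamp Pcna at 3665, 4390 and 4483 and the mitotic genes Top2a at 64, 84 and 90 and Aurka at 59, 65 and 80.

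Between arrays, log2 signals of the 12046 probe sets above background correlated with Pearson's r of 0.968 for arrays 1 and 2, 0.973 for 1 and 3 and 0.966 for 2 and 3, which share the probe sets and their binding. At least 2-fold between highest and lowest array differed 792 of them (6.57%). Array 3 was the lowest for 474 of the 792 and array 2 the highest for 431. Over all genes above background, array 3 was the lowest for 39.7% and array 2 the highest for 38.8%. Background was lowest on array 3, 31.2 against 49.9 and 43.9, so a dim probe set could pass there at a lower signal. The part of this in the counts was not tested. The median CV was 20.2% in the dimmest 20% of these probe sets and 9.47% in the brightest 20%, and in the 100 brightest probe sets it was 5.18%, with 0 at least 2-fold apart. Ribosomal protein genes, added as a list after the values were seen, were above background for 39 of 40 members, with a median CV of 4.50%. The 3'-to-5' signal ratio of actin was 1.57, 1.22 and 1.53 and that of hexokinase 7.42, 1.81 and 3.54, so array 2 had the lowest ratios, and the signal of 5S ribosomal RNA was highest there, 1114 against 394 and 374. The part of RNA integrity in the differences between arrays was not tested.

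Among all genes above background, the ratio of highest to lowest array was largest for Pcolce, an enhancer of collagen processing, with 299, 50.2 and 169, a ratio of 5.95. Synm, an intermediate filament gene, read 260, 590 and 1535, a ratio of 5.89 with array 3 high. Slpi, a secreted protease inhibitor, read 1355, 3080 and 560, a ratio of 5.50 with array 2 high. The class I gene RT1-T24-4 read 1206, 4662 and 1054, with array 2 alone high, and its probe set is one of shared sequence. The synaptic vesicle gene Sv2b read 1401, 293 and 1150, with array 2 alone low. The other genes among the 15 with the highest ratios were Spink1l, Fam89a, Rbm24, Anxa8, Hcn2, Dao, Nfasc, Cyp1a2, Ube3b and Esm1, with ratios between 4.27 and 5.18. Some of these ratios rest on a lowest value near background. Pcolce read 50.2 on array 2, where background was 43.9. Rbm24, Nfasc and Anxa8 read 36.4, 36.8 and 39.7 on array 3, where background was 31.2. Among sinusoidal endothelial genes, array 3 was the highest for 14 of 26 members, where it was the highest for 30.4% of all genes above background, and this count was 10 after quantile normalization and 19 after scaling each array to its median.

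**Figure D5:**
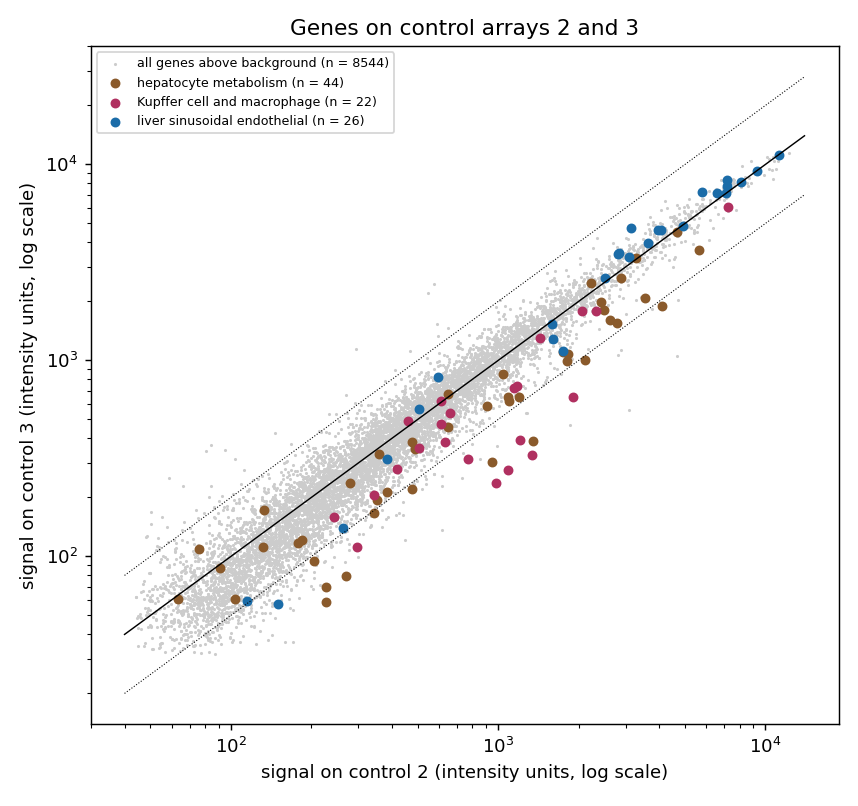
Signal of each gene above background on array 2 (x axis) and array 3 (y axis), in intensity units on log scales; grey points are all 8544 genes, colours mark 3 gene lists, the solid line is equality and dotted lines are 2-fold differences. Most macrophage and hepatocyte metabolism genes lie under the line of equality, and sinusoidal endothelial genes lie near it, most of them in the upper part of the range.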

How the data were processed

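Affymetrix Rat Expression 230A arrays were hybridised with liver endothelial cell RNA, and only the 3 control arrays were used. The values deposited by the authors are intensity on a linear scale, 1 per probe set and array, and no source used here names the program or summary method. Trimmed of 2% at each end, their mean was 399.5, 399.54 and 399.61 on the 3 arrays, so the deposited scaling was kept; such values report each transcript relative to the rest of its array. The 57 control probe sets were left out, and 0 other columns of values were set aside.

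Of 15866 probe sets, 12783 carried 1 gene symbol in the platform annotation supplied with the data, 312 carried several and 2771 none; the last 2 kinds named no gene. Of the named probe sets, 12748 had an identifier in a GRCr8 table of genes, which changed 0 symbols. A gene was represented by its brightest probe set, which favours the probe set that binds best. A signal counted as above background where it exceeded the highest of 27 bacterial control probe sets that are not spiked in, on the same array. Signal over this level and the number of arrays limit the precision.

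No groups were compared and no test was run. Genes were described in 30 hand-written lists and in a list of ribosomal proteins added after the values had been seen. The members and lists were chosen with earlier results of these data known. The genes named are the 30 brightest, 7 marker genes, up to 8 of the brightest members of each list with the partners of named ligands and receptors, the 15 genes with the highest ratio between arrays and up to 4 such members of a list, and dim members that define a cell type. Genes named beyond this rule, such as Vwf, Cldn5, Prox1, Hgf, Egr2 and Top2a, were chosen after their values had been seen.

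Alternatives covered quantile normalization, scaling to the median, removal of probe sets marked as of shared sequence, the mean over all probe sets of a gene, other background levels, other filters, log2(signal + 16) in place of ratios and leaving out 1 array at a time. The scripts were tested on simulated data. Python 3.11.15, pandas 2.3.3, numpy 2.4.6 and matplotlib 3.10.9 were used.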

Additional observations from a re-analysis of the deposited data

How the results depend on the processing

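Of 792 probe sets at least 2-fold apart between the control arrays, the count was 328 when only probe sets with a mean signal above the median of all were kept, which removes dim ones by construction, and 519 when differences of log2(signal + 16) of at least 1 were counted, which shrinks the ratios of dim ones. It lay between 292 and 473 with 1 array left out, with 292 without array 3, 336 without array 2 and 473 without array 1; fewer arrays leave fewer pairs to differ. Quantile normalization gave 665 and scaling to the median 706. The median percentile of the sinusoidal endothelial list stayed between 97.6 and 97.8 over the alternatives run, that of the general endothelial list between 93.3 and 94.5, that of hepatocyte plasma proteins between 84.0 and 89.1, that of macrophage genes between 72.7 and 79.1 and that of quiescent stellate genes between 51.4 and 59.3. The number of sinusoidal endothelial members highest on array 3 was 14 as deposited, 10 after quantile normalization and 19 after scaling to the median, so this order depends on the scaling. Hepatocyte plasma protein members highest on array 1 numbered 36 to 38 over the alternatives for which it was counted, and macrophage members highest on array 2 numbered 19 or 20. No paired analysis was possible because only 1 group was described and no test was run.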
